A study of Mus musculus with 2 samples.

Results

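The insulin and IGF signaling genes described here are Insr, Irs1, Irs2, Igf1r, Igfbp1, Igfbp2, Igfbp4, Foxo1 and Akt2. They were chosen by gene symbol, as 9 of the 32285 genes listed for single-cell RNA-seq (scRNA-seq) of mouse liver, and all 9 were present once in the gene list. Their transcripts were counted as unique molecular identifiers (UMIs, 1 per captured mRNA molecule) in liver cell classes of WT and N-LKO mice. Together they made up 63657 UMIs, or 0.0744% of the WT library, and 69887 UMIs, or 0.0798% of the N-LKO library.

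Insulin and insulin-like growth factors signal through a pair of related receptor tyrosine kinases, the insulin receptor and the IGF1 receptor. The active receptors recruit insulin receptor substrates, which switch on phosphatidylinositol 3-kinase and the kinase AKT2, and AKT in turn keeps the forkhead factor FOXO1 out of the nucleus. In fasted liver FOXO1 drives glucose production genes, Irs2 and Igfbp1, and insulin shuts these genes off. IGF binding proteins, several of them made by hepatocytes, carry IGFs in plasma and limit their access to receptors.

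The study asked how loss of NgBR (encoded by Nus1), a subunit of the enzyme that makes dolichol for protein glycosylation, changes liver cells during diet-induced disease. The N-LKO group carried loxP-flanked NgBR alleles that albumin-Cre deletes in hepatocytes, and the WT group was labelled CTRL. The study used male mice on a C57BL6 background. The treatment label and the study text give a Western diet for 16 weeks for both groups, whereas their titles read HFD. The WT sample was liver, a mixture of hepatocytes and nonparenchymal cells, whereas the N-LKO sample was liver plus tumor, with tumor cells added to that mixture. Each group was 1 library, so genotype, tumor tissue and library cannot be told apart, no test between groups is possible, and every interval given here covers counting error only.

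Promoter stretches of both substrates and of 1 binding protein are shown because they hold a short motif known from insulin-repressed liver genes. The core CAAAACAA of the insulin response sequence was searched for on both strands in RefSeq promoter windows of 300 bases (250 before to 50 after the start site, GRCm38.p6). It was found in the windows of Irs1, Irs2 and Igfbp1, or 3 of the 12 windows of the 8 members that have any, against 2.51% of all 32851 windows. The motif was chosen because it is known from insulin-repressed genes, and Igfbp1 is such a gene, so this count is a description and not a measure of enrichment. The sequences read 5′ to 3′ along the gene's own strand and end at the base before the start site, with the motif in capitals; TTGTTTTG is CAAAACAA on the opposite strand.
Irs1, chr1:82291440-82291512, minus strand: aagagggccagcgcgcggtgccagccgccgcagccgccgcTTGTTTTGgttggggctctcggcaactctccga
Irs2, chr8:11008930-11009007, minus strand: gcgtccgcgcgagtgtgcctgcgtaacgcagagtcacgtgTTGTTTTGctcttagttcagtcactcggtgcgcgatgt
Igfbp1, chr11:7197537-7197786, plus strand: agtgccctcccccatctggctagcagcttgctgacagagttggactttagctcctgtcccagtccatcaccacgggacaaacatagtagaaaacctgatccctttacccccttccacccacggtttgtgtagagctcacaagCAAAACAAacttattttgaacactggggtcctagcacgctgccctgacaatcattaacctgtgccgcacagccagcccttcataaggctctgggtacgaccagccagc

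The first motif base lay at -33 in Irs1, at -38 in Irs2 and at -108 in Igfbp1, counted from the RefSeq start site. For Irs2 the annotations differ. Its window (chr8:11008880-11009179) lies wholly upstream of the gene in GENCODE M21, which begins at 11008458 on the minus strand. The position of -38 therefore holds for the RefSeq start site only. The forkhead motif GTAAACA, searched for in the same way, was in the windows of 0 of the 8 members and in 3.65% of all windows. A match describes letters in the window and not a bound site. No window was at hand for Insr.

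All 9 members are protein-coding genes, placed here by their Ensembl identifiers on the GENCODE M21 annotation of GRCm38. The receptors are the longest: Insr (ENSMUSG00000005534) spans chr8:3122061-3279617 and Igf1r (ENSMUSG00000005533) spans chr7:67952827-68233668. The substrates are Irs1 (ENSMUSG00000055980) at chr1:82233101-82291416 and Irs2 (ENSMUSG00000038894) at chr8:10984681-11008458. Akt2 (ENSMUSG00000004056) lies at chr7:27591552-27640826 and Foxo1 (ENSMUSG00000044167) at chr3:52268336-52353221. Of the binding proteins, Igfbp1 (ENSMUSG00000020429) lies at chr11:7197782-7202546, Igfbp2 (ENSMUSG00000039323) at chr1:72824503-72852474 and Igfbp4 (ENSMUSG00000017493) at chr11:99041244-99054392.

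The WT library held 100171 barcodes and 85522287 UMIs, and the N-LKO library held 90147 barcodes and 87575064 UMIs. Of these, 18431 WT and 19855 N-LKO barcodes were kept as cells, with a median of 1400 and 1455 UMIs, and 121 barcode sequences were kept in both libraries. The cells were clustered without the members or their pathway genes and named from marker genes, which gave 12 classes; 9946 WT and 4579 N-LKO cells were hepatocyte-like. Levels are UMIs per 1000000 UMIs of all cells of a class (CPM), with exact 95% Poisson intervals, and are compared only within a gene because 3′ UMIs are not scaled to gene length. Nus1 was at 72.9 CPM in WT cells and 36.8 CPM in N-LKO hepatocyte-like cells, but the loxP sites flank its first exon and 3′ UMIs lie outside that part, so this value does not check the deletion. RNA from broken cells was estimated to be abundant in both libraries. Markers of other classes put its share of the hepatocyte-like UMIs at 72.0% in WT cells and 44.9% in N-LKO. Its profile came from barcodes under 500 UMIs, and the lowest deposited barcode had 326 UMIs in WT and 377 UMIs in N-LKO. Small or damaged cells among these barcodes cannot be told from free RNA, so all free RNA levels given here are estimates. The level that this free RNA alone would give is stated where a member was close to it.

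In hepatocyte-like cells the receptor and substrate Insr and Irs1 and the factor Foxo1 had higher levels in the N-LKO library, the 3 binding proteins had lower levels, and the ratio intervals of Irs2 and Akt2 included 0. Foxo1 showed the largest gap among the members. Its level was 63.4 CPM (59.6 to 67.3, 1065 UMIs) in WT cells and 221 CPM (211 to 230.5, 2088 UMIs) in N-LKO, a ratio of 3.48. On the log2 scale, this ratio of N-LKO over WT was 1.80, with an exact 95% conditional binomial interval of 1.69 to 1.91. The intervals of the levels lay far apart, and after each cell was thinned to 1000 UMIs, 5.82% of WT and 18.8% of N-LKO cells held a Foxo1 UMI (9.77% and 32.1% before thinning).

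Insr, which encodes the receptor for insulin itself, stood at 144 CPM (138 to 149.7) in WT cells and 281 CPM (270.1 to 292) in N-LKO hepatocyte-like cells. The log2 ratio was 0.96 (0.88 to 1.04). Irs1, the substrate that couples the receptor to lipid and glucose handling, was at 37.8 CPM (35.0 to 40.9) in WT cells and 75.4 CPM (70.0 to 81.1) in N-LKO, with a log2 ratio of 0.99 (0.84 to 1.15). Both members lay just under the 2-fold mark, and their levels above free RNA alone kept that order, at 102 CPM and 221 CPM for Insr and at 24.2 CPM and 67.2 CPM for Irs1. When the UMIs left after subtraction were also rescaled to their own total, which is smaller in WT, the log2 ratio was 0.31 for Insr and 0.67 for Irs1, against a median of 0.71 over all expressed genes. Irs2, the substrate that fasting induces in liver, was at 22.4 CPM (20.2 to 24.8) and 26.1 CPM (23.0 to 29.6), and its log2 ratio of 0.22 had an interval of -0.02 to 0.45 that includes no difference. Akt2, the main AKT of insulin-responsive tissues, was at 34.2 CPM in WT cells and 32.1 CPM in N-LKO, with a log2 ratio of -0.09 (-0.29 to 0.12). Free RNA alone would give 25.0 and 10.7 CPM of Akt2, which leaves 9.19 and 21.5 CPM.

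Igf1r, which adult hepatocytes are known to express at very low levels, was far lower there than in most other classes. It was at 11.8 CPM (10.3 to 13.6) in WT cells and 19.5 CPM (16.7 to 22.5) in N-LKO, where free RNA alone would give 5.47 and 16.1 CPM. The log2 ratio was 0.72 (0.42 to 1.01), whereas 6.37 CPM (WT) and 3.34 CPM (N-LKO cells) were left above free RNA, so that no direction can be read for Igf1r in hepatocyte-like cells.

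The binding proteins went the other way. Igfbp1, the fasting-induced and insulin-repressed binding protein, was at 96.9 CPM (92.3 to 101.8) in WT cells and 76.7 CPM (71.2 to 82.5) in N-LKO (log2 ratio -0.34, -0.47 to -0.21). Igfbp2, a binding protein that falls in obesity and fatty liver, was at 99.8 CPM (95.1 to 104.7) and 53.5 CPM (48.9 to 58.4) (log2 ratio -0.90, -1.05 to -0.75). Igfbp4, which hepatocytes secrete in quantity, was at 508 CPM (497 to 519) and 370.1 CPM (358 to 383) (log2 ratio -0.46, -0.51 to -0.40). For each of the 3, the intervals of the levels in the 2 libraries did not overlap. Free RNA alone would give 268 CPM (WT) and 154 CPM (N-LKO) of Igfbp4, which leaves 240 and 217 CPM. For Igfbp2 it would give 47.7 and 28.7 CPM, which leaves 52.1 and 24.8 CPM. When the UMIs left after subtraction were rescaled to their own total, the log2 ratio was -0.95 for Igfbp4 and -1.87 for Igfbp2.

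The members were set against all 10739 genes expressed at 5 CPM or more in either library. Only 1 member, Foxo1, was 2-fold or more higher in N-LKO, where 25% of all expressed genes were, and 0 members were 2-fold or more lower, where 2.45% of all genes were. Insr at 0.96 and Irs1 at 0.99 on the log2 scale lay just under the cut. With 9 members, these counts cannot be told apart from the shares of all genes. The median log2 ratio of the members was 0.22, with 5 of 9 above 0, and that of all expressed genes was 0.45. Relative to that shift of all genes, Foxo1 was 1.35 higher on the log2 scale, whereas Igfbp2 was at -1.35 and Igfbp4 at -0.91.

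**Figure D1:**
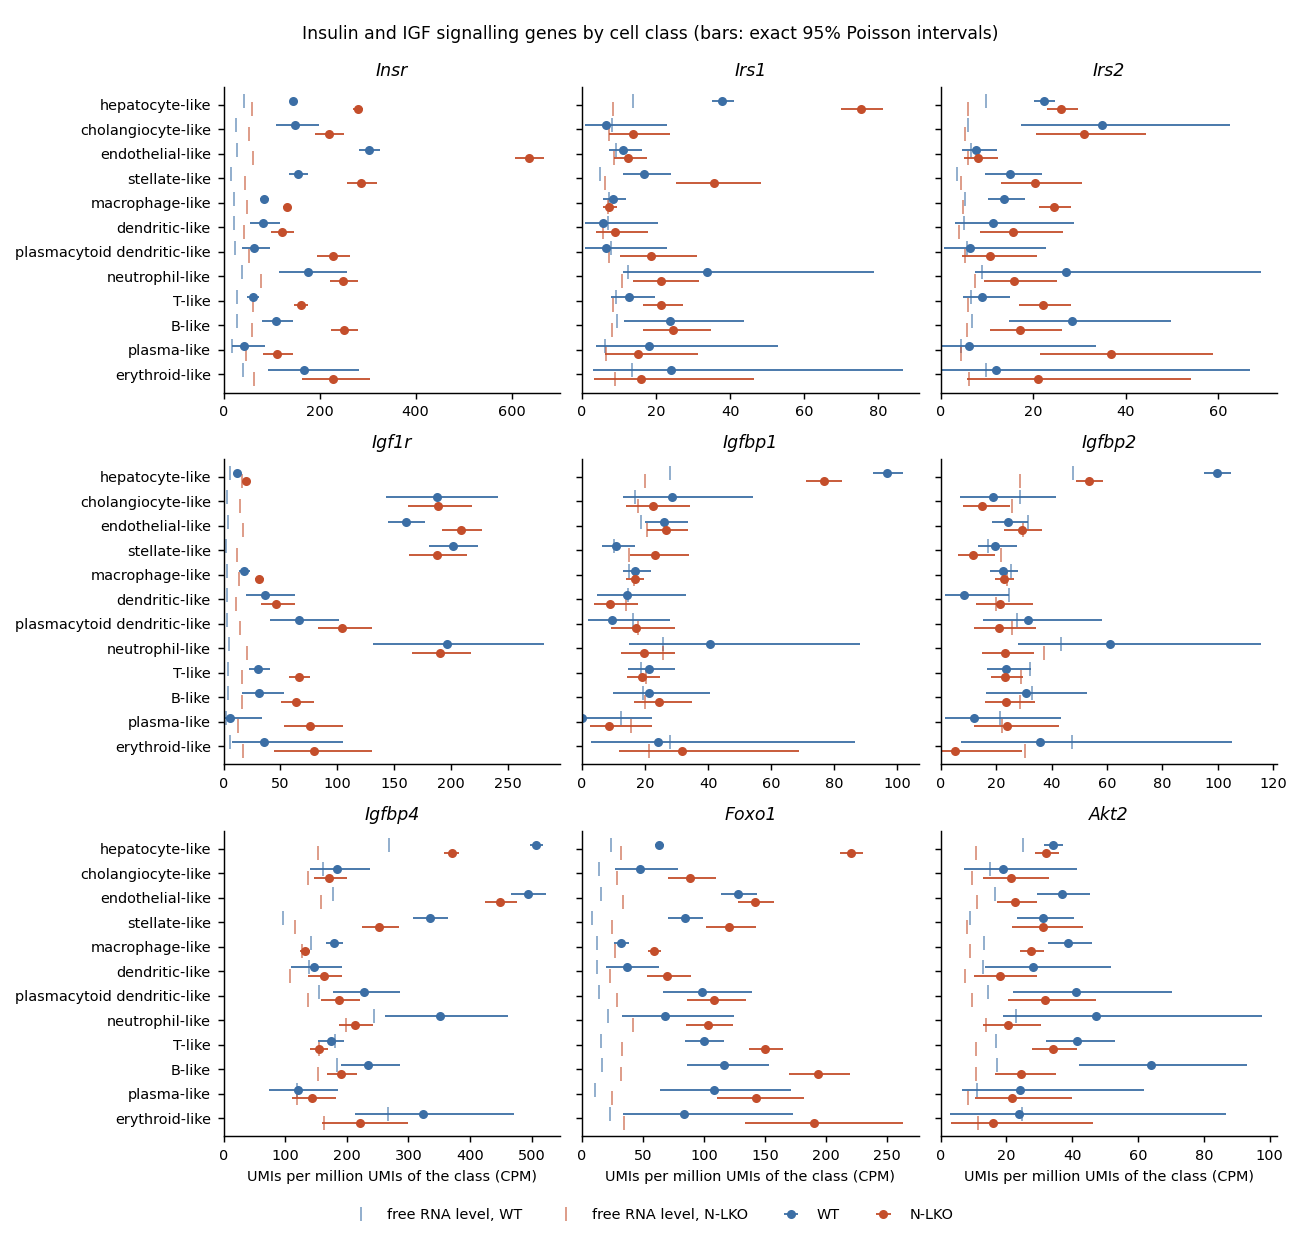
Level of each member (CPM, horizontal axis) in 12 cell classes of the WT library (blue) and the N-LKO library (red), with exact 95% Poisson intervals; small ticks mark the level free RNA alone would give. Insr is highest in endothelial-like cells, at 303 CPM in WT cells and 637 CPM in N-LKO, Igf1r is low in hepatocyte-like cells, and Igfbp1 and Igfbp2 stand clear of the free RNA ticks mainly in hepatocyte-like cells.

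The hepatocyte-like cells of the 2 libraries did not fall into the same clusters. Of the WT cells, 83.4% lay in cluster 0, and of the N-LKO cells, 53.8% lay in cluster 4 and 43.6% in cluster 6. Cluster 4 (2464 N-LKO cells) was rich in Malat1, a nuclear noncoding RNA, at 19670 CPM, and low in Alb, at 3955 CPM, while cluster 6 (1998 N-LKO cells) had 4568 CPM of Malat1 and 16333 CPM of Alb. Cluster 4 met the hepatocyte markers only weakly, with 3 of 10 markers raised, against 10 in clusters 0 and 6. The 10 genes that led cluster 4 held none of the markers, which was also so for the other hepatocyte-like clusters. The WT library had a smaller Malat1-rich cluster of its own, cluster 17 (319 cells, 35868 CPM of Malat1).

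The high N-LKO levels of Insr, Irs1 and Foxo1 sat in cluster 4. Insr was at 413 CPM (395 to 431) there and at 145 CPM (134 to 156) in cluster 6, a value that overlaps the 147 CPM (141 to 154) of WT cluster 0. Irs1 was at 129 CPM in cluster 4 and at 20.5 CPM (16.5 to 25.2) in cluster 6, which is below the 34.9 CPM (31.9 to 38.1) of WT cluster 0. Foxo1 was at 346 CPM in cluster 4 and 92.5 CPM (83.8 to 101.9) in cluster 6, both above the 58.7 CPM (54.8 to 62.8) of WT cluster 0. In cluster 6, which was not rich in Malat1, Foxo1 was above WT cluster 0 and Insr was not.

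Malat1-rich cells differed from other cells in the WT library as well. In WT cluster 17, Insr was at 295 CPM (255 to 340.2), Irs1 at 144 CPM (116 to 176) and Foxo1 at 231 CPM (196 to 271). Between the Malat1-rich clusters, N-LKO cluster 4 over WT cluster 17, the log2 ratio was 0.48 (0.27 to 0.70) for Insr, -0.17 (-0.48 to 0.17) for Irs1 and 0.58 (0.34 to 0.83) for Foxo1, with a median of 0.09 over all expressed genes. The binding proteins Igfbp1 and Igfbp2 were both more than 2-fold lower in N-LKO in this pair of clusters. Igfbp1 was at 189.8 CPM (158 to 226) in WT cluster 17 and 57.8 CPM (51.2 to 65.0) in N-LKO cluster 4 (log2 ratio -1.72, -2.03 to -1.40). Igfbp2 was at 148 CPM (120.4 to 181) and 39.1 CPM (33.7 to 45.1) (log2 ratio -1.93, -2.29 to -1.56). Irs2, at 55.1 CPM (38.6 to 76.3) and 32.8 CPM (27.9 to 38.4), was also lower in N-LKO in this pair, with a log2 ratio of -0.76 (-1.28 to -0.18). Igf1r was at 6.12 CPM in WT, from 4 UMIs, and 25.6 CPM in N-LKO (log2 ratio 1.90, 0.67 to 3.96). Igfbp4 had overlapping intervals, at 279 CPM (240 to 322) and 258 CPM (244 to 273).

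In the largest other cluster of each library, N-LKO cluster 6 over WT cluster 0, fewer members differed. Neither pair of clusters was matched on Malat1. It was at 8787 CPM in WT cluster 0 and 4568 CPM in N-LKO cluster 6. In the Malat1-rich pair it was at 35868 CPM in WT cluster 17 and 19670 CPM in N-LKO cluster 4. The mitochondrial shares of that pair were 7.57% and 14.0%. Foxo1 had a log2 ratio of 0.66 (0.48 to 0.83), Irs1 of -0.76 (-1.10 to -0.44) and Igfbp2 of -0.64 (-0.83 to -0.46). Igfbp1 was level, at 96.7 CPM in WT cluster 0 and 97.5 CPM in N-LKO cluster 6, and Igfbp4 was slightly lower in N-LKO, with a log2 ratio of -0.15 (-0.22 to -0.08). Foxo1 was therefore higher, and Igfbp2 lower, in the N-LKO library within both pairs of clusters, while Irs1 was lower in one pair and not distinguishable in the other. These pairs were chosen after the levels of Malat1 were seen. Clusters 0 and 6 also held a few cells of the other library. In cluster 0, 91 N-LKO cells had Foxo1 at 54.1 CPM (24.8 to 102.8) and Igfbp2 at 120 CPM (73.5 to 186). Both intervals include the WT levels. In cluster 6, 115 WT cells had Foxo1 at 35.4 CPM (15.3 to 69.8), below N-LKO. Igfbp2 there was at 75.3 CPM (43.8 to 120.5), overlapping N-LKO, and Igfbp1 at 177 CPM (126 to 241), above N-LKO.

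**Figure D2:**
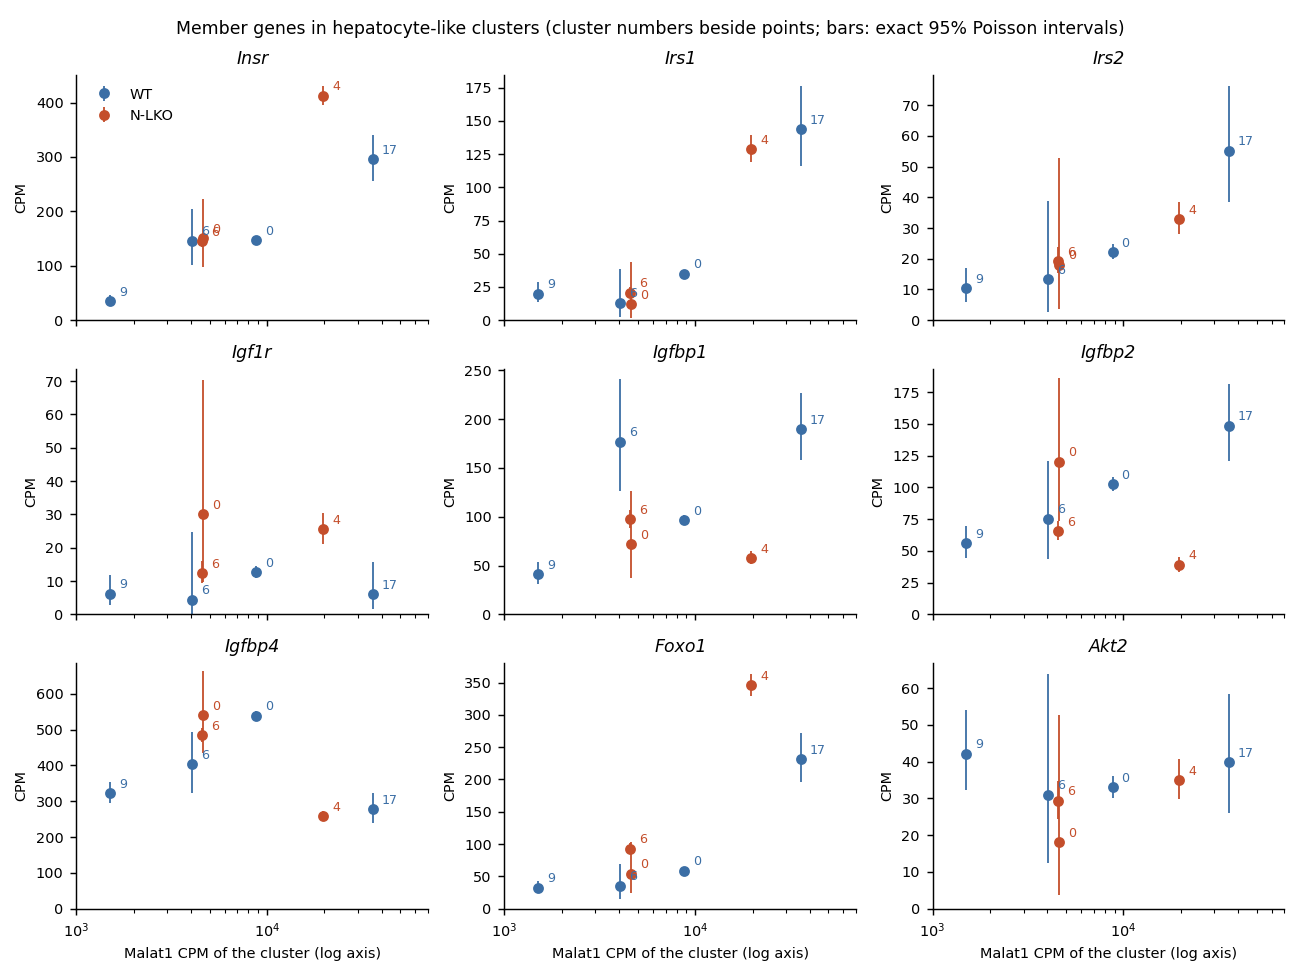
Level of each member (CPM) in each hepatocyte-like cluster with at least 50 cells of a library, against the Malat1 level of that cluster (CPM, log axis), with exact 95% Poisson intervals and cluster numbers. Insr, Irs1 and Foxo1 stand highest in the Malat1-rich clusters 4 (N-LKO) and 17 (WT), and Igfbp1 and Igfbp2 are low in cluster 4 and high in cluster 17.

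Cells of the 2 libraries were also compared at the same share of Malat1 UMIs. Among cells with under 0.5% Malat1 (4508 WT, 1522 N-LKO), Foxo1 was at 46.9 CPM (41.9 to 52.3) in WT cells and 81.5 CPM (71.9 to 92.1) in N-LKO (log2 ratio 0.80, 0.56 to 1.04). Insr was at 102 CPM and 124 CPM (log2 ratio 0.28, 0.09 to 0.46), and Irs1 was lower in N-LKO, at 29.3 CPM and 18.9 CPM, with a log2 ratio of -0.63 (-1.08 to -0.21). Igfbp2 remained lower, at 88.9 CPM and 70.2 CPM, with a log2 ratio of -0.34 (-0.57 to -0.12). Akt2 was also lower, at 36.0 CPM and 27.7 CPM, with a log2 ratio of -0.37 (-0.75 to -0.02). Over all hepatocyte-like cells, free RNA alone would give 25.0 CPM of Akt2 in WT and 10.7 CPM in N-LKO. Igfbp1 and Igfbp4 did not differ beyond counting error, with log2 ratios of 0.01 (-0.19 to 0.21) and -0.03 (-0.11 to 0.06). In these cells 0 of 9 members passed 2-fold in either direction, where 6.43% of all expressed genes were 2-fold or more higher and 2.54% were lower. The band was not matched by cluster. Hepatocyte-like cluster 9 (1192 WT and 19 N-LKO cells) was poor in Malat1, at 1505 CPM in WT. Its WT cells had Insr at 35.2 CPM, Foxo1 at 32.4 CPM and Igfbp2 at 55.9 CPM, all below WT cluster 0, whereas Akt2 at 42.1 CPM was not. For N-LKO cluster 6 over WT cluster 0, the Insr log2 ratio was -0.02 (-0.15 to 0.10). The part of cluster 9 in the ratios of this band was not tested.

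At higher Malat1 shares the ratios of several members grew. Foxo1 had a log2 ratio of 1.58 (1.33 to 1.82) at 0.5 to 1% Malat1, of 2.11 (1.91 to 2.32) at 1 to 2%, and of 1.56 (1.34 to 1.79) above 2%. Insr went from 0.62 at 0.5 to 1% to 1.09 (0.95 to 1.24) at 1 to 2% and 0.98 (0.81 to 1.15) above 2%. Igfbp2 widened in the opposite direction, from -0.78 at 0.5 to 1% to -1.38 at 1 to 2% and -1.66 (-2.06 to -1.28) above 2%, and Igfbp1 from -0.03 to -0.66 and -1.09 (-1.43 to -0.75). Irs1 had no steady order, at 0.92, 1.56 and 0.55. Foxo1, Igfbp2 and Insr had intervals on the same side of 0 in all 4 bands, and the median over all expressed genes lay between 0.10 and 0.66 in these bands. The part that the nuclear RNA content of the cells has in these differences was not tested.

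**Figure D3:**
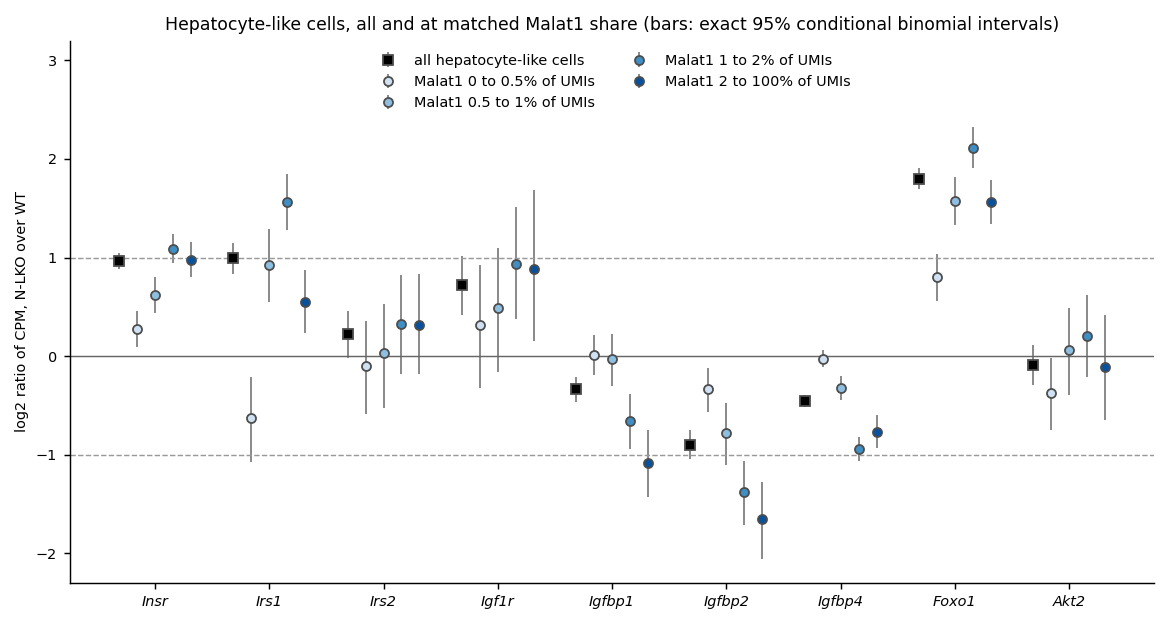
Log2 ratio of CPM, N-LKO over WT, for each member in all hepatocyte-like cells (black squares) and in cells binned by the share of their UMIs that is Malat1 (circles, darker for more Malat1), with exact 95% conditional binomial intervals; dashed lines mark 2-fold. Foxo1 is above 0 in every band, from 0.80 to 2.11, Igfbp2 is below 0 in every band, and Irs1 crosses from -0.63 to 1.56.

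Long genes had higher N-LKO over WT ratios in hepatocyte-like cells, and the members differ widely in length. Expressed genes were sorted into 10 equal groups by span from start to end, and the median log2 ratio was -0.16 in the shortest group and 1.11 in the longest. Insr (157.6 kb) and Igf1r (280.8 kb) were in the longest group, with ratios of 0.96 and 0.72 that lie below its median. Irs1 (58.3 kb), at 0.99, was near the 0.79 of its group. Foxo1 (84.9 kb), at 1.80, stood above the 0.95 of its group, and Igfbp2 (28.0 kb), at -0.90, stood below the 0.32 of its group. In cells with under 0.5% Malat1 the medians of the groups ranged from 0.05 to 0.18, and Foxo1 at 0.80 and Igfbp2 at -0.34 were still on opposite sides of them. Irs1 at -0.63 and Akt2 at -0.37 also lay below the medians of their groups in these cells. From the shortest to the longest group, the medians went from -0.35 to 0.35 in endothelial-like and from -0.30 to 0.29 in macrophage-like cells. They went from -0.56 to 0.43 in stellate-like and from -0.50 to 0.63 in T-like cells. Insr was above the longest-group median in each of these classes, at 1.07, 0.64, 0.88 and 1.395 in that order. Igf1r was at 0.38, 0.79, -0.10 and 1.10. Whether UMIs from introns were counted is not given in the sources used here, and the part of gene span in these ratios was not tested.

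**Figure D4:**
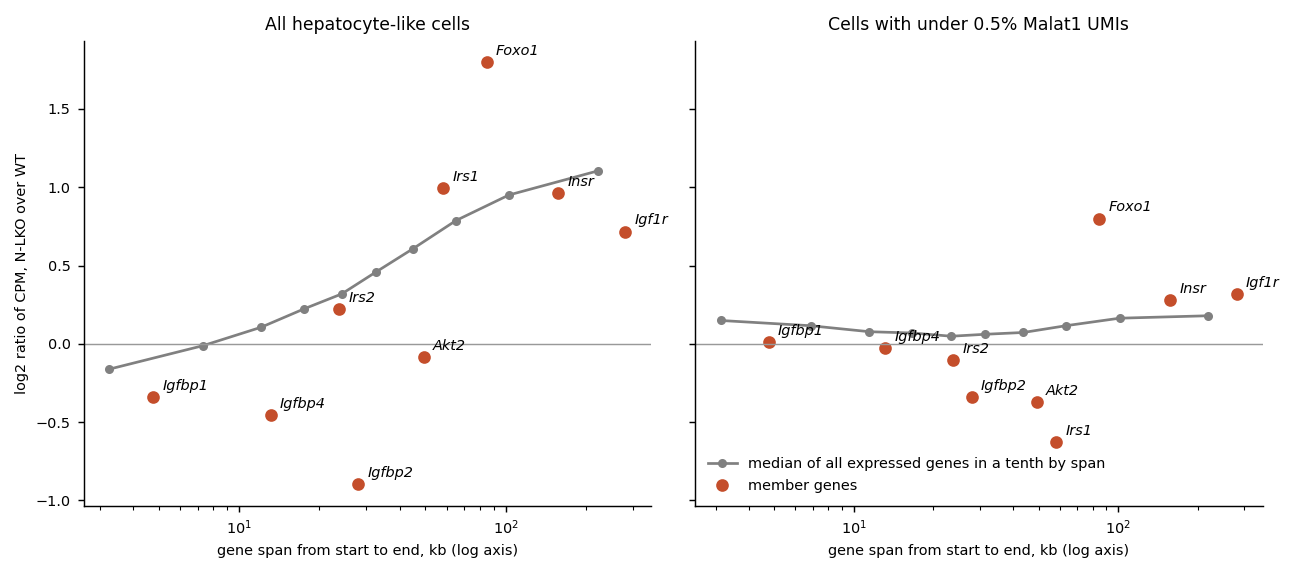
Log2 ratio of CPM, N-LKO over WT, against gene span in kb (log axis), for the members (red) and for the median of all expressed genes in each of 10 groups by span (gray line), in all hepatocyte-like cells (left) and in those with under 0.5% Malat1 UMIs (right). The gray line climbs from -0.16 to 1.11 on the left and stays between 0.05 and 0.18 on the right; Foxo1 is above it and Igfbp2 below it in both panels.

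Hepatocytes differ along the lobule from portal to central vein, so member levels were also read across zones, with cells ranked by their share of pericentral among pericentral and periportal marker UMIs and split at 2 score values into 3 groups of similar size within each library (2617 to 2932 WT cells and 572 to 728 N-LKO cells). In the WT library, where 8369 of the hepatocyte-like cells could be scored, Igfbp1 was at 83.8 CPM in the periportal group and 115 CPM in the pericentral group (log2 ratio 0.46, 0.28 to 0.64). The N-LKO library, with 1956 scored cells, had the same order, at 76.6 CPM and 113 CPM (log2 ratio 0.56, 0.23 to 0.89). Igfbp1 was higher on the pericentral side in both, and Igfbp2 in the N-LKO library, at 47.4 CPM and 64.7 CPM, with a log2 ratio of 0.45 (0.02 to 0.88). Irs1 in the N-LKO library was at 49.1 CPM and 66.0 CPM, with an interval of 0.0075 to 0.85 that barely clears 0. Igf1r was at 5.65 CPM in periportal and 14.7 CPM in pericentral WT cells (log2 ratio 1.37, 0.76 to 2.04), and at 14.6 CPM in both of these groups of N-LKO cells, with 16.1 CPM from free RNA alone. Foxo1 was even across zones, with log2 ratios of -0.15 (-0.38 to 0.08) in WT cells and 0.07 (-0.17 to 0.30) in N-LKO, and so was Insr, at 0.15 in both libraries. The groups are ranges of a score and not cell types: 1527 WT and 430 N-LKO cells lay within 0.05 of a boundary.

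Outside hepatocytes, Insr was highest in endothelial-like cells. It was at 303 CPM (281 to 326) in WT cells and 637 CPM (606 to 669) in N-LKO endothelial-like cells (log2 ratio 1.07, 0.94 to 1.20), and the next class in each library had an interval entirely below these. After thinning to 1000 UMIs, 22.5% of WT and 38.5% of N-LKO endothelial-like cells held an Insr UMI, while plasma-like cells, the lowest class, stood at 5.05% and 8.65%; before thinning the endothelial-like shares were 26.4% and 45.5%, and the plasma-like shares 6.06% and 15.04%. Kept cells of both libraries had at least 1000 UMIs, so thinning left none out. Insr was the 1 member of 9 that was 2-fold or more higher in N-LKO endothelial-like cells, where 8.67% of all expressed genes were, and 0 members were 2-fold or more lower, where 7.51% of genes were. In the free RNA of the 2 libraries Insr also differed, at 57.8 CPM in WT cells and 133 CPM in N-LKO, and free RNA alone would give 27.5 and 61.9 CPM in endothelial-like cells. Both libraries' endothelial-like cells lay mostly in cluster 2 (1816 WT, 1862 N-LKO). At a clustering resolution of 1, most WT cells (1688) and most N-LKO cells (1732) fell into different clusters. Another cluster at that resolution, with 460 N-LKO cells, was also named endothelial-like, at a low marker score of 0.25. Grip1, Pdzrn3 and Snhg11 were among the genes that led it, and they also led hepatocyte-like cluster 4. The Insr log2 ratio of 1.03 at that resolution includes these cells. Malat1 in endothelial-like cells stood at 8930 CPM for WT and 10801 CPM for N-LKO; its part in the Insr difference was not tested.

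Every other class also had more Insr in the N-LKO library. Stellate-like cells, the fat-storing pericytes of the sinusoid, had 155 CPM (137 to 176) in WT cells and 287 CPM (256 to 319.8) in N-LKO. Macrophage-like cells had 84.7 CPM and 132 CPM (log2 ratio 0.64, 0.46 to 0.84), T-like cells had 60.7 CPM and 160 CPM (log2 ratio 1.395, 1.08 to 1.73), and B-like cells had 109 CPM (79.9 to 146) and 251 CPM (224 to 281). The interval of the ratio included 0 in neutrophil-like, dendritic-like and erythroid-like cells. The order of classes below endothelial-like cells was not resolved in WT, where neutrophil-like (176 CPM), erythroid-like (168 CPM), stellate-like, cholangiocyte-like (149 CPM) and hepatocyte-like cells had overlapping intervals.

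Igf1r, in contrast to its low level in hepatocyte-like cells, was high in several other classes. It was at 201 CPM (180.5 to 224) in WT cells and 187 CPM (163 to 214) in N-LKO stellate-like cells, at 187 CPM and 189 CPM in cholangiocyte-like cells, which line the bile ducts, and at 196 CPM and 191 CPM in neutrophil-like cells. These classes showed no difference between libraries beyond counting error, and their intervals overlapped one another. Endothelial-like cells had 160.3 CPM (144 to 177) in WT cells and 209 CPM (192 to 228) in N-LKO (log2 ratio 0.38, 0.19 to 0.58). In T-like cells Igf1r was at 30.7 CPM and 66.4 CPM (log2 ratio 1.10, 0.65 to 1.60), with 3.67 and 16.3 CPM that free RNA alone would give. Hepatocyte-like cells, at 11.8 and 19.5 CPM, had intervals below those of all of these classes in their own library.

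Foxo1 was spread over many classes. In WT it was at 128 CPM (114 to 143) in endothelial-like, 116 CPM (86.0 to 154) in B-like and 99.7 CPM (84.6 to 117) in T-like cells, above the 63.4 CPM of hepatocyte-like cells; in lymphocytes FOXO1 is known to control homing and survival genes. In N-LKO the hepatocyte-like cells were at the top of the order with 221 CPM, and their interval overlapped that of B-like cells, at 193 CPM (169 to 219.5), and of the few erythroid-like cells, at 190.2 CPM (133 to 263). The Foxo1 ratio was small in endothelial-like cells, at 0.15 (-0.08 to 0.37), and larger in macrophage-like cells, at 32.1 CPM in WT cells and 59.1 CPM in N-LKO with a log2 ratio of 0.87 (0.58 to 1.19). Of the macrophage-like Foxo1 level, free RNA alone would give 12.5 and 26.9 CPM.

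Irs1 outside hepatocytes was at or near the free RNA level in endothelial-like cells (11.1 and 12.5 CPM, against 9.04 and 8.53 CPM from free RNA) and in macrophage-like cells (8.32 and 7.39 CPM). Stellate-like cells had Irs1 above that level, at 16.7 CPM (11.1 to 24.1) in WT cells and 35.5 CPM (25.4 to 48.4) in N-LKO (log2 ratio 1.08, 0.36 to 1.84). Irs2 was at 13.8 CPM (10.2 to 18.3) in WT cells and 24.6 CPM (21.3 to 28.2) in N-LKO macrophage-like cells (log2 ratio 0.83, 0.38 to 1.32), and at 8.94 CPM and 22.0 CPM in T-like cells (log2 ratio 1.26, 0.45 to 2.25), where the WT level, from 14 UMIs, did not clear its free RNA level of 6.58 CPM. Irs2 was not highest in hepatocyte-like cells: cholangiocyte-like cells led in WT, at 34.9 CPM (17.4 to 62.5), and plasma-like cells in N-LKO, at 36.8 CPM (21.4 to 58.9), with intervals that overlapped those of the next classes and of hepatocyte-like cells.

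Akt2 levels lay between 19.0 and 64.0 CPM in WT classes and between 15.8 and 34.2 CPM in N-LKO classes. They were not above the free RNA level in neutrophil-like and erythroid-like cells of either library, nor in WT cholangiocyte-like and plasma-like cells. It was lower in N-LKO endothelial-like cells (36.8 and 22.6 CPM, log2 ratio -0.70, -1.21 to -0.21), macrophage-like cells (38.8 and 27.5 CPM, log2 ratio -0.50, -0.81 to -0.18) and B-like cells (64.0 and 24.5 CPM, log2 ratio -1.39, -2.19 to -0.58). The free RNA profile moved with it, at 34.7 CPM in WT cells and 23.8 CPM in N-LKO; its part in these differences was not tested.

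Of the binding proteins, Igfbp4 was the one with a clear second source. Endothelial-like cells had 495 CPM (466.5 to 524) in WT cells and 449 CPM (424 to 476) in N-LKO, against 177 and 159 CPM from free RNA alone, and WT endothelial-like and hepatocyte-like cells could not be ranked by their intervals. Stellate-like cells had 335 CPM (308 to 364) and 253 CPM (224 to 284) (log2 ratio -0.41, -0.62 to -0.20). In T-like cells Igfbp4 was at the free RNA level in both libraries, at 174 and 155 CPM against 180.2 and 155 CPM. Igfbp1 and Igfbp2 were likewise at or near that level outside hepatocytes: T-like cells had 21.1 and 19.0 CPM of Igfbp1 against 18.8 and 20.2 CPM from free RNA, and 23.6 and 23.4 CPM of Igfbp2 against 32.1 and 29.0 CPM. In stellate-like cells Igfbp1 had 10.7 CPM in WT cells and 23.1 CPM in N-LKO, where free RNA gives 10.04 and 15.01 CPM, so its 2-fold ratio rests on values near the background.

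In macrophage-like cells 0 of 9 members were 2-fold or more higher, where 4.02% of expressed genes were, and 0 were lower, where 6.08% were. In stellate-like cells Irs1 and Igfbp1 were 2-fold or more higher, beside 10.3% of genes, and 0 members were lower, beside 8.23%. In T-like cells Insr, Irs2 and Igf1r were 2-fold or more higher, beside 12% of genes, and 0 members were lower, beside 8.11%.

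The other genes of the pathway were read from a list of 57 ligands, carriers, receptors, adaptors, kinases, inhibitors, forkhead factors and insulin-responsive hepatocyte transcripts. In hepatocyte-like cells 44 of them were expressed, of which 12 were 2-fold or more higher in N-LKO, near the 25% of all genes, and 2 were 2-fold or more lower, beside 2.45%. The median log2 ratio of the list was 0.48, close to the 0.45 of all expressed genes. Among cells with under 0.5% Malat1, 1 of the 43 expressed list genes was 2-fold or more higher, beside 6.43% of all genes, and 2 were lower, beside 2.54%, with a median of 0.03 against 0.10.

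The ligands were led by Igf1, the hormone that liver releases under growth hormone, at 836 CPM in WT cells and 645 CPM in N-LKO (log2 ratio -0.37, -0.42 to -0.33). Igfals, the partner that holds IGF1 in a large plasma complex, was at 20.5 CPM and 11.3 CPM (log2 ratio -0.85, -1.18 to -0.54). Ins1, Ins2, Igf2, Igfbp3 and Igfbp6 were below the expression limit in hepatocyte-like cells. Igfbp5 was 2-fold or more higher, at 3.33 CPM and 8.88 CPM (log2 ratio 1.41, 0.91 to 1.93). Igf2r, a clearance receptor for IGF2, was at 17.0 CPM and 32.9 CPM, a log2 ratio of 0.95.

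The counts by role stand beside the 25% of all genes that were 2-fold or more higher. Among the adaptors, 2 of 5 expressed genes were, namely Gab1 at 22.8 and 46.5 CPM and Cbl at 24.6 and 57.6 CPM. Of the 14 expressed kinase and phosphatidylinositol 3-kinase genes, 4 were 2-fold or more higher, close to that share. These were Rictor and Rptor, which define the 2 complexes of the kinase mTOR, Mtor itself and the regulatory subunit Pik3r3. Rictor was at 41.3 CPM in WT cells and 108 CPM in N-LKO (log2 ratio 1.39, 1.25 to 1.53), Rptor at 38.4 and 93.5 CPM (log2 ratio 1.28, 1.14 to 1.43), and Mtor at 18.2 and 41.6 CPM (log2 ratio 1.19, 0.97 to 1.41). In cells low in Malat1 these intervals included 0: with under 0.5% Malat1 the log2 ratios were 0.28 (-0.06 to 0.61) for Rictor, 0.25 (-0.12 to 0.61) for Rptor and 0.33 (-0.16 to 0.80) for Mtor. Between N-LKO cluster 6 and WT cluster 0, Rictor was at 40.4 and 41.0 CPM, while between the Malat1-rich clusters its log2 ratio was 0.77 (0.41 to 1.16).

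Of the 12 expressed inhibitors, 4 were 2-fold or more higher, and Socs3 led them. Socs3, a cytokine-induced inhibitor that also binds the insulin receptor, had few UMIs, 32 in WT cells and 66 in N-LKO, giving 1.90 CPM and 6.98 CPM and a log2 ratio of 1.86 (1.24 to 2.53). The Socs3 ratio was 1.69 (0.71 to 2.75) in cells with under 0.5% Malat1 and 2.45 (1.68 to 3.27) for N-LKO cluster 6 over WT cluster 0. Between the Malat1-rich clusters the Socs3 ratio was -0.02 (-1.53 to 2.55), from 3 UMIs in WT and 25 in N-LKO. Grb10, an adaptor that dampens receptor signaling, had a log2 ratio of 1.43 over all hepatocyte-like cells and was under the expression limit in the low-Malat1 cells. Phlpp1 and Phlpp2, phosphatases that act on AKT, were the other two past 2-fold.

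Among the 6 insulin-responsive transcripts, Srebf1 and G6pc were 2-fold or more lower and Sesn1 was 2-fold or more higher in N-LKO. Srebf1, the lipogenic factor that insulin induces, was at 171 CPM in WT cells and 47.5 CPM in N-LKO (log2 ratio -1.85, -1.99 to -1.70). The same gap was present in cells with under 0.5% Malat1, at 162 and 46.3 CPM, between clusters 0 and 6, at 180.1 and 48.5 CPM, and between the Malat1-rich clusters 17 and 4, at 161 and 45.9 CPM. G6pc, the last enzyme of glucose production and a FOXO1 target, was at 735 CPM and 309.8 CPM (log2 ratio -1.25, -1.30 to -1.19), with -1.003 (-1.11 to -0.90) in low-Malat1 cells. Between the Malat1-rich clusters G6pc was at 1462 CPM and 297 CPM, and the interval of its ratio was -2.42 to -2.18. Pck1, the gluconeogenic enzyme that insulin represses, was at 1040.2 CPM and 729 CPM over all cells, and at 933 and 971 CPM in cells with under 0.5% Malat1. Sesn1, a FOXO target, had a log2 ratio of 1.11 over all cells and 0.36 (-0.16 to 0.86) in the low-Malat1 cells. Of the other genes named here as FOXO1 targets, G6pc was lower in N-LKO in all cells and in low-Malat1 cells. Igfbp1 and Pck1 were lower over all cells, with intervals that include 0 in low-Malat1 cells. The interval of Irs2 included 0 in both. Between the Malat1-rich clusters these 4 were lower in N-LKO, with Pck1 at 1635 CPM and 458 CPM (log2 ratio -1.84, -1.94 to -1.73). The Sesn1 ratio in that pair was 0.10 (-0.37 to 0.63). For N-LKO cluster 6 over WT cluster 0, the ratios were -1.25 for G6pc, -0.05 for Pck1, 0.01 for Igfbp1, -0.20 for Irs2 and -0.14 for Sesn1. The intervals of Igfbp1, Irs2 and Sesn1 included 0 there.

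**Figure D5:**
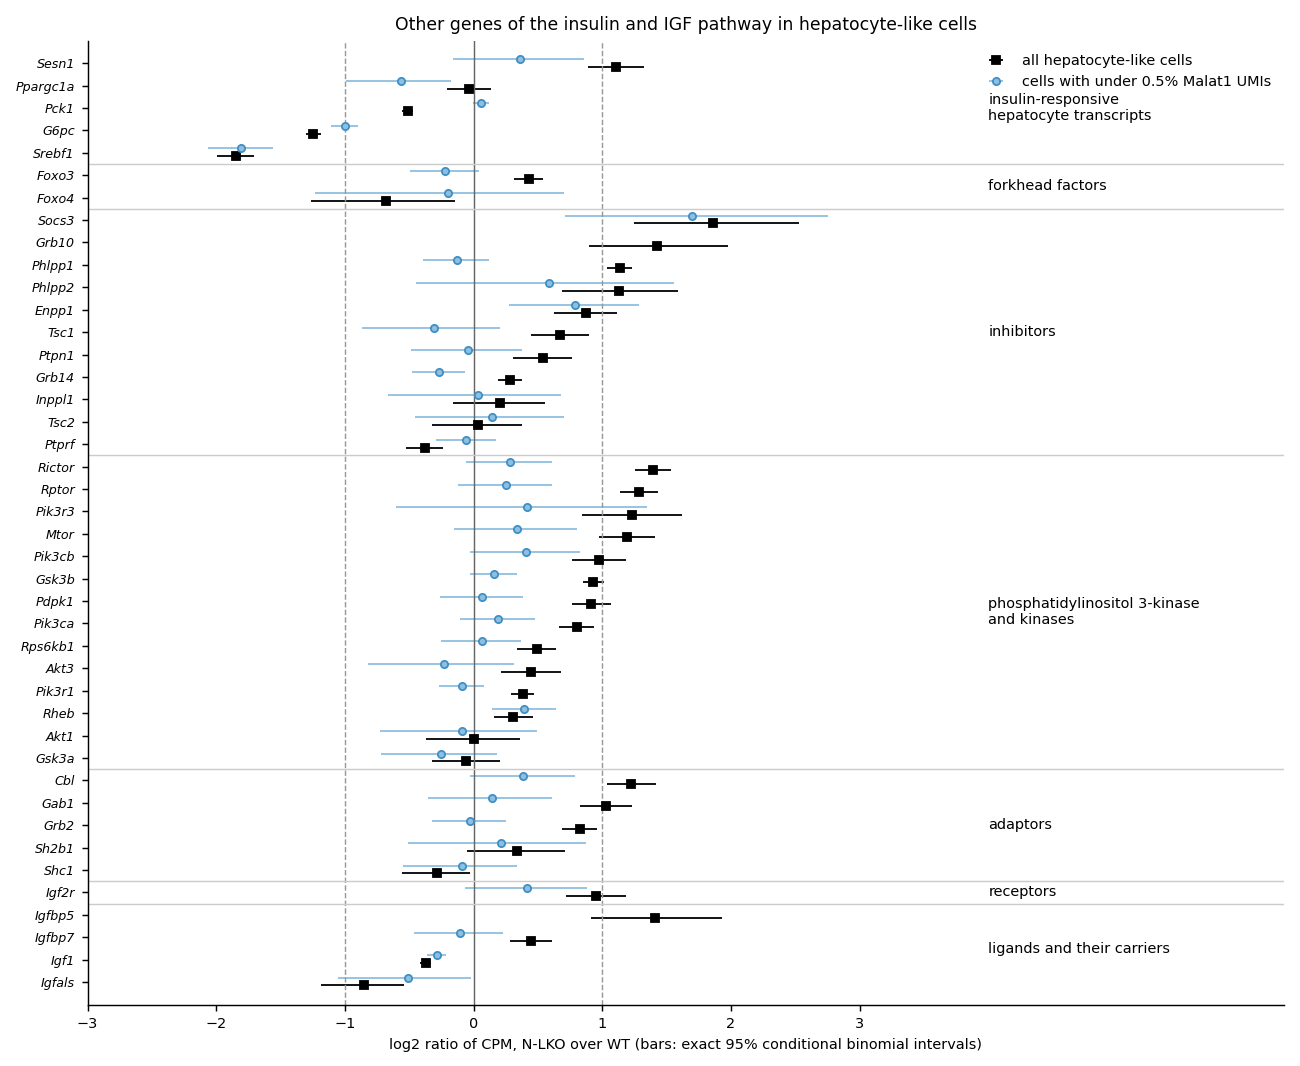
Log2 ratio of CPM, N-LKO over WT, for expressed genes of the pathway list, grouped by role, in all hepatocyte-like cells (black squares) and in cells with under 0.5% Malat1 UMIs (blue circles, where expressed), with exact 95% conditional binomial intervals; dashed lines mark 2-fold. Srebf1, G6pc and Socs3 have like values in both, while Rictor, Rptor, Mtor and Phlpp1 have intervals that include 0 in the low-Malat1 cells.

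Outside hepatocytes the list was read in the same way. In stellate-like cells Igfbp3, the main IGF carrier of plasma, was at 295 CPM in WT cells and 107 CPM in N-LKO (log2 ratio -1.45, -1.76 to -1.17), and Igfbp5 was at 10.7 CPM and 39.1 CPM (log2 ratio 1.84, 1.04 to 2.74). Igfbp5 was also higher in N-LKO endothelial-like cells, at 41.5 and 89.9 CPM. In stellate-like cells 5 of the 47 expressed list genes were 2-fold or more higher, beside 10.3% of all genes, and 2 were lower, beside 8.23%. In T-like cells 5 of 44 were higher, beside 12%, and 1 was lower, beside 8.11%. In endothelial-like cells 3 of 47 were higher, beside 8.67%, and 2 were lower, beside 7.51%, and in macrophage-like cells 0 of 44 were higher, beside 4.02%, and 2 were lower, beside 6.08%.

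The genes whose levels ran most like each member were read from the Pearson correlation of log2(CPM + 1) over 24 sums, 12 classes in 2 libraries, among 6924 genes or more with a mean of at least 20 CPM. All sums come from the same 2 libraries, so these correlations are a description. Igfbp1 was closest to Etnk2 (r = 0.932), Gulo and Dhtkd1, and Igfbp4 to Selenop (r = 0.953), Cmtm8 and Aass. Insr was closest to Apbb2 (r = 0.912), Dock1 and Plpp3, Igf1r to Kitl (r = 0.861), Vezf1 and Rhoj, and Foxo1 to Ube2h (r = 0.851), Ibtk and Rad54l2. Irs1 was closest to Cdh18 (r = 0.853) and then to Ghr and Gcgr, the receptors for growth hormone and glucagon. Igfbp2 was closest to Cyp2a12 (r = 0.821), Azgp1 and Apoa5, Akt2 to Ivd (r = 0.782), Smim27 and Glrx5, and Irs2 to Lrrc8d (r = 0.735), Dusp16 and Pik3c2g.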

How the data were processed

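The deposited values were UMI counts per gene and barcode (10x Genomics 3′ kit v3), made by the authors with Cell Ranger 7.1.0 per the file headers; the authors' processing notes list the genome build mm9 and Seurat. Whether introns were counted and the numerical cutoffs for cells are not given in the sources used here. Of 32285 gene identifiers, 99.6% matched GENCODE M21 (GRCm38).

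Barcodes with at least 1000 UMIs and 400 genes and at most 30% mitochondrial UMIs were kept. Those with a doublet score over 0.25 were removed (8.57% in WT, 10.6% in N-LKO). The study displayed fewer cells than were kept. With scanpy 1.11.5, 2000 variable genes (members and pathway genes left out), 30 components, 20 neighbors and leidenalg 0.10.2 at resolution 0.3 gave clusters, named from marker lists at a score of 0.15 or more, with clusters left mixed where a second type reached 0.7 of the best score. Both thresholds were set after the data were seen. UMIs were summed per class and library (scipy 1.17.1), and 0.5 UMI was added to each sum for ratios. Free RNA was read from barcodes under 500 UMIs, of which none had fewer than 326 UMIs in WT or 377 UMIs in N-LKO.

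Depth was 85522287 UMIs in WT and 87575064 UMIs in N-LKO. With 1 library per group there is no replicate check, and intervals and floors cover counting error only.

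The members and lists were chosen with earlier results of these data known. Named pathway genes were the 10 with the widest ratio plus members of groups described; for each member, the 3 best-correlated genes were named. Alternatives changed filters, scaling, clustering, free RNA and the hepatocyte-like cells included. Some genes of the pathway list are counted but not reported here by name.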

Additional observations from a re-analysis of the deposited data

How the results depend on the processing

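The number of members 2-fold or more higher in N-LKO hepatocyte-like cells was 1 and became 2 with a UMI minimum of 500, 2 with a UMI minimum of 2000, 2 over all barcodes of each library, 3 with cells thinned to 1000 UMIs and 3 in cells with 1 to 2% Malat1. It became 0 without the mitochondrial limit, 0 with clusters rich or poor in Malat1 left out, 0 with clusters named at a score of 0.2 (which leaves out N-LKO cluster 4, as does the rule for a like cluster of 3538 cells without the mitochondrial limit) and 0 in cells with under 0.5% Malat1. The number 2-fold or more lower was 0 and became 1 with a UMI minimum of 2000, 1 when scaled without mitochondrial genes and the 50 most abundant genes, 1 relative to the median of all expressed genes, 1 in cells with 1 to 2% Malat1, 2 above 2% Malat1 and 3 with free RNA subtracted and the remaining UMIs rescaled to their own total. The marker score and the Malat1 bands were added after seeing the data; the cause of the other shifts was not tested. Foxo1 stayed above 0 (0.50 to 2.11) and Igfbp2 below 0 (-1.87 to -0.34) in all 17 alternatives. Igfbp4 was also below 0 in all 17, from -0.95 to -0.03. Its value of -0.03, in cells with under 0.5% Malat1, had an interval that included 0 (-0.11 to 0.06). Insr reached -0.02 with Malat1-rich and Malat1-poor clusters left out, and Irs1 reached -0.89 at the score of 0.2. In stellate-like cells the Igfbp1 ratio of 1.09 turned to -0.056 at a mitochondrial limit of 10% and to -0.62 over all barcodes. At a limit of 10% the N-LKO clusters closest to hepatocytes (820 and 225 cells) were left unnamed by the marker rule, so no value was had, and stellate-like cells could not be named with a UMI minimum of 2000, without the mitochondrial limit or with doublets kept. No paired analysis was possible because each group is 1 library. With 1 library per group, depth limits the counting intervals but replication limits every comparison; members near the free RNA level, such as Igf1r in hepatocyte-like cells, cannot be ranked between libraries.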
